A study of Homo sapiens with 12 samples.

Results

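The 9 genes GRXCR1, RASGRP2, YPEL4, LRFN1, TMEM132C, AMN, SH3PXD2A, FBXO27 and DKKL1 were chosen by their measured H3K4me3. Each had an H3K4me3 peak near a gene end in both libraries of EPZ011989-treated cells and in neither vehicle library, and each ranked high by covered length among the 184 genes of 19974 with that pattern (0.921%). The cells were MKL-1, an established line of Merkel cell carcinoma, which is a skin tumour with neuroendocrine features. One group of cultures grew for 6 days in 3 µM EPZ011989, an inhibitor of the methyltransferase EZH2, in 1% ethanol, and the control group in 1% ethanol alone, with fresh medium on day 3. Each treatment was done in duplicate, and each culture supplied chromatin for 3 antibodies, H3K27me3, H3K4me3 and a control IgG, which gave 12 CUT&RUN libraries in 6 groups of 2. CUT&RUN releases DNA from intact chromatin with a nuclease that is tethered to the antibody. All libraries came from 1 cell line, so p-values and SDs cover repeated treatment and library making in that line only.

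H3K27me3 is the mark that EZH2, the catalytic subunit of Polycomb repressive complex 2, places on chromatin of silent developmental and lineage genes, where it often forms domains. H3K4me3 marks the start sites of active genes and of genes held ready, and promoters rich in CG dinucleotides can carry both marks together. Where EZH2 is inhibited, H3K27me3 is diluted as cells divide. The 9 genes have different jobs. RASGRP2 activates the small GTPase Rap1 in platelets, and SH3PXD2A encodes TKS5, a scaffold of the invasive cell protrusions named podosomes and invadopodia. LRFN1 is a synaptic adhesion protein, TMEM132C a single-pass membrane protein and YPEL4 a member of the conserved yippee-like family. AMN is the membrane partner of cubilin in vitamin B12 uptake, FBXO27 a sugar-binding F-box protein of an SCF ubiquitin ligase, DKKL1 a secreted protein related to the dickkopf Wnt antagonists, and GRXCR1 is needed for the hair bundles of inner ear cells.

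Where the H3K4me3 lay relative to annotated start sites differed between the genes, and the promoters shown here carry that difference. RefSeq promoters (GRCh38.p14, 250 bases before to 50 after a start) were matched for 8 of the 9 genes. At LRFN1, SH3PXD2A, RASGRP2 and YPEL4 the start lay inside the peak of both EPZ011989 libraries. The peak at DKKL1 held a start of its neighbour TEAD2, and the start of AMN lay outside any peak of the 4 H3K4me3 libraries. CG dinucleotides are in capitals, and each promoter reads 5′ to 3′ on the minus strand except AMN, on the plus strand.
LRFN1: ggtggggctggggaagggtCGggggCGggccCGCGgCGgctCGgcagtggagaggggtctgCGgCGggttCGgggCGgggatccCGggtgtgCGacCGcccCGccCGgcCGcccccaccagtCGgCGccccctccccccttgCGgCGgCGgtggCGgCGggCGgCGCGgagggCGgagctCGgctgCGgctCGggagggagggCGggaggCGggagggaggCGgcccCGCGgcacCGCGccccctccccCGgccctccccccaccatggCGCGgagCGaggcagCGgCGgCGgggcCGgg
SH3PXD2A: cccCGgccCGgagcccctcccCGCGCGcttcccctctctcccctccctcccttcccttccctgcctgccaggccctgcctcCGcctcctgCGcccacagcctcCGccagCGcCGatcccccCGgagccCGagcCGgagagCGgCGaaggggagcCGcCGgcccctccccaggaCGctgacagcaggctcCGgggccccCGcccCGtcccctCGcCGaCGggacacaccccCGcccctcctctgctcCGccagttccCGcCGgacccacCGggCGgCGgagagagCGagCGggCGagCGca
TEAD2: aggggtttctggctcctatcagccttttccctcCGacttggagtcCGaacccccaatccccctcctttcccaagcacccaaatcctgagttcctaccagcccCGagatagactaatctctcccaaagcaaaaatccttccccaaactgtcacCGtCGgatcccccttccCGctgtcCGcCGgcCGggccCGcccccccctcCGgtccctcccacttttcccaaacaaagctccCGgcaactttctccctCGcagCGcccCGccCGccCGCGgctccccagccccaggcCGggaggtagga
RASGRP2: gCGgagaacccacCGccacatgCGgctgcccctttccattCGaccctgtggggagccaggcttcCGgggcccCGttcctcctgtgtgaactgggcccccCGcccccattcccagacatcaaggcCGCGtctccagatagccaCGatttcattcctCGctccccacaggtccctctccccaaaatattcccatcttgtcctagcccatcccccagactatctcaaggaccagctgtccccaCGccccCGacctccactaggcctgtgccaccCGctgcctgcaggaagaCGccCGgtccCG
YPEL4: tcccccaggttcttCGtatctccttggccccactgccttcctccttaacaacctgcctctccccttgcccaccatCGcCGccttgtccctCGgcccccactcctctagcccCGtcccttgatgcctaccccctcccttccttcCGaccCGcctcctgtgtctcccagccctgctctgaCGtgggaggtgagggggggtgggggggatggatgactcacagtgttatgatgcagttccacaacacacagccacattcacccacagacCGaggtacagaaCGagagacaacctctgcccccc
AMN: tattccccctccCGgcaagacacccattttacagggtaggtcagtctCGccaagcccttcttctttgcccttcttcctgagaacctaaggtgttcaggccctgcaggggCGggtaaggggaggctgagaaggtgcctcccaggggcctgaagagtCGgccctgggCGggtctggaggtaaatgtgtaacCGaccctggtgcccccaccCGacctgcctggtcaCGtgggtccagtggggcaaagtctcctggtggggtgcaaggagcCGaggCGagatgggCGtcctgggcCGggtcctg

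These promoters lie at chr19:39320814-39321113 (LRFN1), chr10:103855527-103855826 (SH3PXD2A), chr19:49362367-49362666 (TEAD2), chr11:64745299-64745598 (RASGRP2), chr11:57649863-57650162 (YPEL4) and chr14:102922413-102922712 (AMN). LRFN1 held 45 CG dinucleotides, more than 96.5% of the 35116 promoters in the RefSeq table, whose median was 14. SH3PXD2A held 35, more than 85.9% of promoters. The other 4 held 10 to 19 CG and sat near the middle of the table: YPEL4 had 10, AMN 12, RASGRP2 17 and TEAD2 19. A rich CG content was therefore a feature of 2 of these promoters and not of the set. The GC box letters GGGCGG, searched on both strands and overlapping the counted CG, were found 8 times at LRFN1, 3 times each at SH3PXD2A and TEAD2, 2 times at AMN, 1 time at RASGRP2 and not at YPEL4. Of all promoters in the table, 45% held at least 1. TATAAA was in 0 of the 6 promoters shown and in 11.5% of all, and CCAAT was in 1 of the 6, at TEAD2, and in 34.6% of all, both searched on both strands.

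Each gene was measured by its covered length, meaning how many bases within 2500 bp of either gene end lay under a library's peaks. All 9 genes stood at 0 in both vehicle H3K4me3 libraries, as the choice of genes required. GRXCR1 had the most covered bases, 2952 bp in EPZ011989 replicate 1 and 2704 bp in replicate 2. RASGRP2 followed with 2870 and 2600 bp, and within the window the 2 replicates of each of these genes lay close together. The window edge cut both GRXCR1 peaks, which were 4366 and 3467 bp wide in full. It also cut the RASGRP2 peak of replicate 1, 3094 bp wide, while the RASGRP2 length in replicate 2 came from peaks of 2230 and 370 bp. The full peaks of these genes thus differed more between replicates than the covered lengths. YPEL4 had 2374 and 1421 bp, LRFN1 2039 and 1326 bp, and TMEM132C 2162 and 1070 bp. In these 3 genes replicate 1 was well above replicate 2, most of all at TMEM132C, by 2.02-fold. AMN had 2029 and 1161 bp, SH3PXD2A 1556 and 1594 bp, FBXO27 1669 and 1332 bp, and DKKL1 1505 and 1438 bp. Replicate 1 was the higher in 8 of the 9 genes, SH3PXD2A being the exception, and in 144 of the 184 genes with the pattern.

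**Figure D1:**
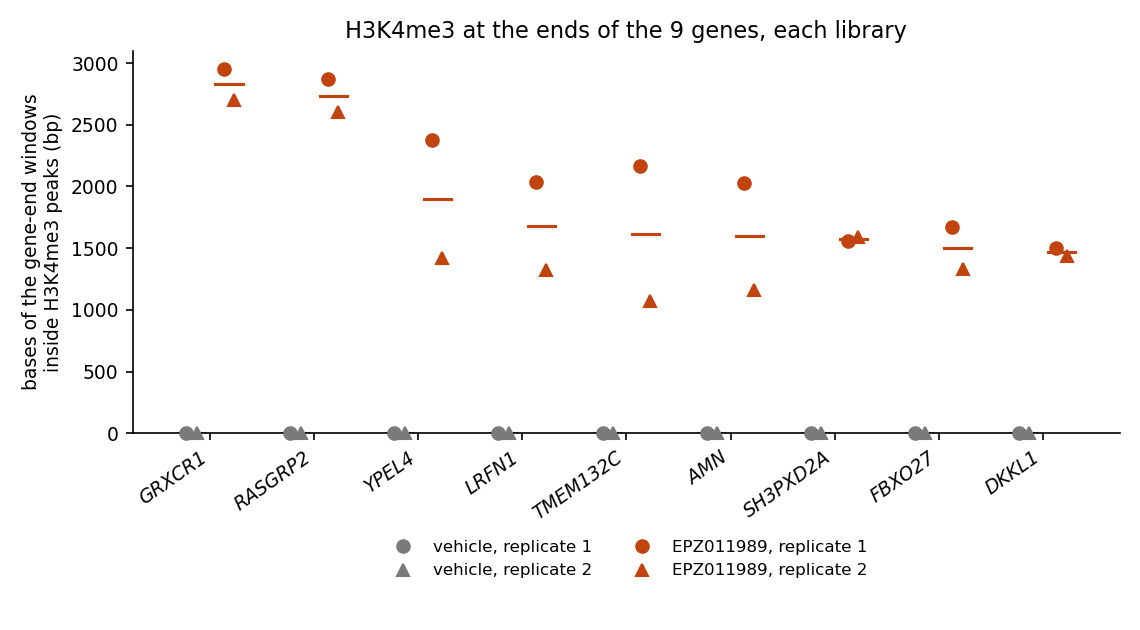
Bases of the gene-end windows inside H3K4me3 peaks (bp) for each of the 9 genes, with circles for replicate 1, triangles for replicate 2 and a line at the mean of the 2 libraries, in grey for vehicle and orange for EPZ011989. All vehicle points sit at 0, and the EPZ011989 points run from 1070 bp at TMEM132C to 2952 bp at GRXCR1.

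As means the order was GRXCR1 (2828 ± 175 bp, SD, n = 2), RASGRP2 (2735 ± 191 bp), YPEL4 (1898 ± 674 bp), LRFN1 (1682 ± 504 bp), TMEM132C (1616 ± 772 bp), AMN (1595 ± 614 bp), SH3PXD2A (1575 ± 26.9 bp), FBXO27 (1500 ± 238 bp) and DKKL1 (1472 ± 47.4 bp). Both libraries of GRXCR1 and of RASGRP2 exceeded both libraries of each of the other 7 genes. The window edge cut peaks at GRXCR1 and RASGRP2, so their SDs hold for the lengths within the window only. Among those 7 the ranges of neighbours in this order overlapped, so neighbours did not differ beyond their spread. The median over all 184 genes with the pattern was 682 bp. DKKL1 was the last gene inside the set at 1472 bp, and the next below it, ADGRB1, stood at 1362 bp (2013 and 712 bp). The choice was not a strict cut by length, since GATA2 at 1730 bp and DIO3 at 1610 bp fell between chosen genes.

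Set against all peaks of their own libraries, the peaks at these genes were of ordinary width and modest height. The fold is the authors' MACS2 ratio of fragments at the peak to local background, and it was ranked only within its own list. The longest peak at each gene in each library made 18 peaks, 655 to 4366 bp wide with folds of 4.9 to 29.5. Between 19.4% and 51.7% of the peaks of the same list had a lower fold. GRXCR1 alone was wide by that standard, with 92.8% and 88.6% of peaks narrower in replicates 1 and 2. RASGRP2 came next with 79.8% and 66.8%, yet its folds of 5.65 and 4.9 exceeded only 19.9% and 19.4% of peaks, so its peak was long and low. LRFN1 in replicate 1 (fold 29.5) and FBXO27 in both replicates (27.5 and 17.8) had the tallest peaks, near the middle of their lists.

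**Figure D2:**
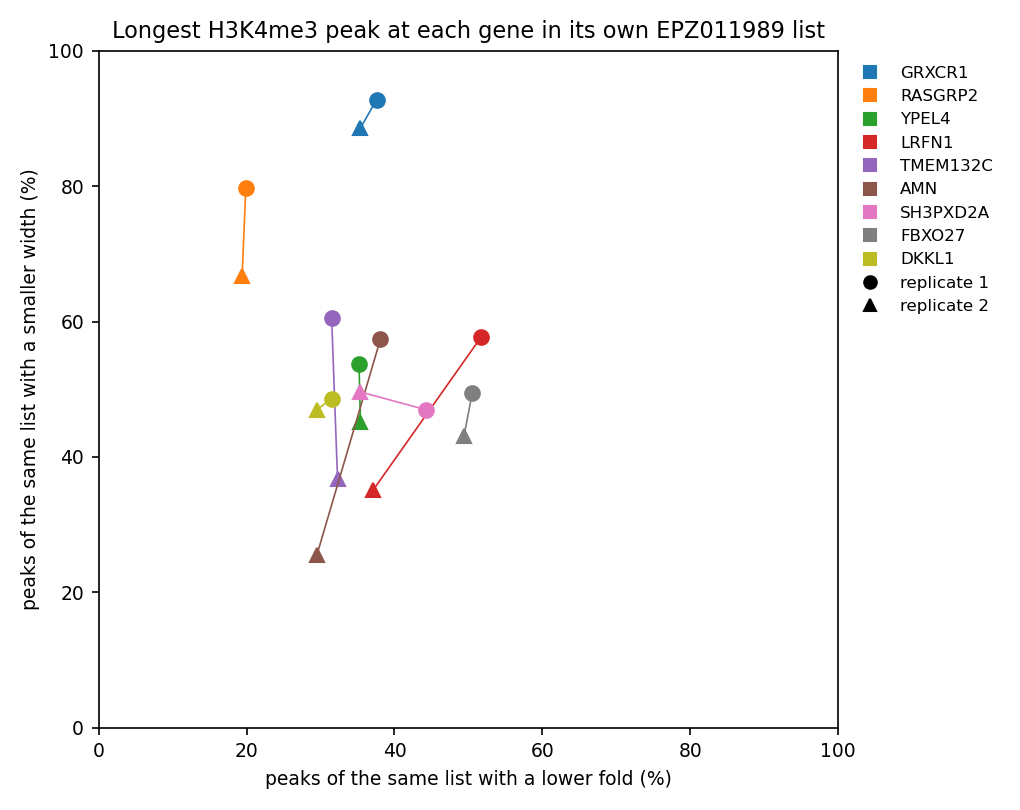
For the longest H3K4me3 peak at each gene in each EPZ011989 library, the percentage of peaks in the same list with a lower fold (x axis) and with a smaller width (y axis), circles for replicate 1, triangles for replicate 2, joined by gene. GRXCR1 lies at the top (92.8% and 88.6% of peaks narrower), RASGRP2 at the far left (19.9% and 19.4% of peaks with a lower fold), and the folds of the other 7 genes lie between 29.5% and 51.7%.

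Among peaks that overlapped no vehicle H3K4me3 peak the same peaks were long. EPZ011989 replicate 1 listed 3155 such peaks with a median width of 428 bp, and replicate 2 listed 2964 with a median of 382 bp. GRXCR1 held the widest of them in both libraries and RASGRP2 the next widest. The longest peaks at TMEM132C, LRFN1, AMN and YPEL4 ranked 5, 7, 8 and 13 by width in replicate 1 but 56, 76, 310 and 20 in replicate 2. SH3PXD2A, FBXO27 and DKKL1 ranked 33, 23 and 26 in replicate 1 and 13, 26 and 16 in replicate 2.

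At RASGRP2 and SH3PXD2A, the genes of Rap1 activation and of invasive protrusions, the peaks covered an annotated start and lay mostly inside the gene. The RASGRP2 peak lay at chr11:64742732-64745825 in replicate 1 and chr11:64743169-64745398 in replicate 2, with summits 2162 and 513 bp downstream of the start at 64745348. The summits of the 2 libraries were 1649 bp apart, the widest gap of the set, although replicate 2's peak lay wholly within that of replicate 1. The nearest vehicle H3K4me3 peaks were 2967 and 2944 bp beyond the other end of the gene, at a fold of 22.9 and 23.7, just outside the 2500 bp window. With windows of 5000 bp these peaks came inside, and RASGRP2 no longer met the rule. YPEL4 also no longer met it, through vehicle replicate 2 alone: its nearest peak there was 3320 bp from the gene, while that of vehicle replicate 1, at 5010 bp, stayed outside. PYGM, the muscle glycogen phosphorylase gene next to RASGRP2, shared the peak: its windows held 354 and 649 bp of H3K4me3 in vehicle and 2680 and 1911 bp with EPZ011989. The vehicle bases lay at the end of PYGM away from RASGRP2.

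SH3PXD2A had 5 starts in the table, and the new peak covered the most upstream of them. That peak lay at chr10:103854412-103855967 in replicate 1 and chr10:103854520-103856113 in replicate 2, and the summits were 27 bp upstream and 52 bp downstream of the start at 103855576. Within 2500 bp of this start both vehicle libraries had 0 bp of H3K4me3 and 5001 bp of H3K27me3, the whole window. The start at 103661704, far downstream in the same gene, was marked in all 4 libraries, with 3540 and 3879 bp in vehicle and 3931 and 3726 bp with EPZ011989, and had 0 bp of H3K27me3. The start at 103693478 carried both marks in vehicle, with 891 and 1143 bp of H3K4me3 and 5001 bp of H3K27me3 in each library, and 1741 and 1727 bp of H3K4me3 with EPZ011989. SH3PXD2A was thus a gene with H3K4me3 at other starts before treatment, and only its most upstream end met the rule.

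At the synaptic gene LRFN1 and the membrane protein gene TMEM132C the peaks sat at or just before the start. LRFN1's peak was at chr19:39319962-39322000 in replicate 1 and chr19:39320445-39321444 in replicate 2, with summits 12 bp downstream and 111 bp upstream of the start. Replicate 2 listed a further peak of 326 bp upstream of it, across the outer edge of the replicate 1 peak. TMEM132C's peak was at chr12:128266384-128268545 and chr12:128266421-128267490, and its summits lay 1127 and 1170 bp upstream of the annotated start. The start was inside the replicate 1 peak and 502 bp beyond the edge of the replicate 2 peak. The lower-coordinate end of the TMEM132C gene, at 128267170, lay inside both peaks. The lncRNA LOC107987176 ends under the same peak, which overlapped 649 and 612 bp of it.

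YPEL4 and FBXO27 had summits that were nearly identical in the 2 libraries. The YPEL4 summits were 470 and 463 bp downstream of its start, in peaks at chr11:57648415-57650279 and chr11:57648859-57650279. All of both peaks lay inside the annotated lncRNA MIR130AHG as well, and the lists carry no strand. The FBXO27 summits fell on the same base, 1007 bp downstream of the start, in peaks at chr19:39031094-39032762 and chr19:39030878-39032209. Its start was inside the replicate 1 peak and 340 bp outside the replicate 2 peak.

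AMN and DKKL1 were named by a peak that did not cover their own start. AMN, whose product carries cubilin to the cell surface, had its peak at chr14:102928421-102930449 in replicate 1, 5758 bp downstream of the start and in the far part of an 8180 bp gene. In replicate 2 the same stretch was listed as 2 peaks of 506 and 655 bp, each with a fold of 6.68. The start window of AMN had 0 bp of H3K4me3 in all 4 libraries and 3830 and 4164 bp of H3K27me3 in vehicle. The window at the 3′ end of CDC42BPB, a kinase gene next to AMN, shared the peak. CDC42BPB already had 2536 and 2574 bp of H3K4me3 in vehicle, but at its other end, since the nearest vehicle H3K4me3 peaks were 91.1 kb from AMN.

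The DKKL1 peak, chr19:49361511-49363140 in replicate 1 and chr19:49361578-49363069 in replicate 2, ended 737 and 808 bp before the annotated DKKL1 start at 49363877. The DKKL1 gene as measured here begins at 49360515, ahead of that start, so the whole peak lay inside the gene. It held the start of TEAD2, a TEA domain transcription factor that works with the coactivator YAP, at 49362416. Within 2500 bp of that TEAD2 start H3K4me3 was 0 bp in both vehicle libraries and 1630 and 1492 bp with EPZ011989. TEAD2 was not among the 184 genes because its other end carried vehicle H3K4me3, 959 and 720 bp. From the peaks alone, a gain at TEAD2 and a gain at DKKL1 cannot be told apart.

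GRXCR1, the hair bundle gene, had the longest peak and the barest surroundings. It lay at chr4:42892262-42896627 (4366 bp, fold 11.3) in replicate 1 and chr4:42892510-42895976 (3467 bp, fold 8.91) in replicate 2, with summits 9 bp apart. The peak began 451 and 203 bp outside the lower-coordinate end of the gene and ran 3914 and 3263 bp into it. The vehicle peaks nearest to the gene were 96.9 kb away for H3K4me3 and 489 kb away for H3K27me3. RN7SKP82, a 223 bp pseudogene copy of the 7SK RNA, lies at the lower edge of the peak, overlapped over 223 and 109 bp, while the summits were 1080 and 1089 bp from its start. How reads that match several places were handled is not given in the sources used here.

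**Figure D3:**
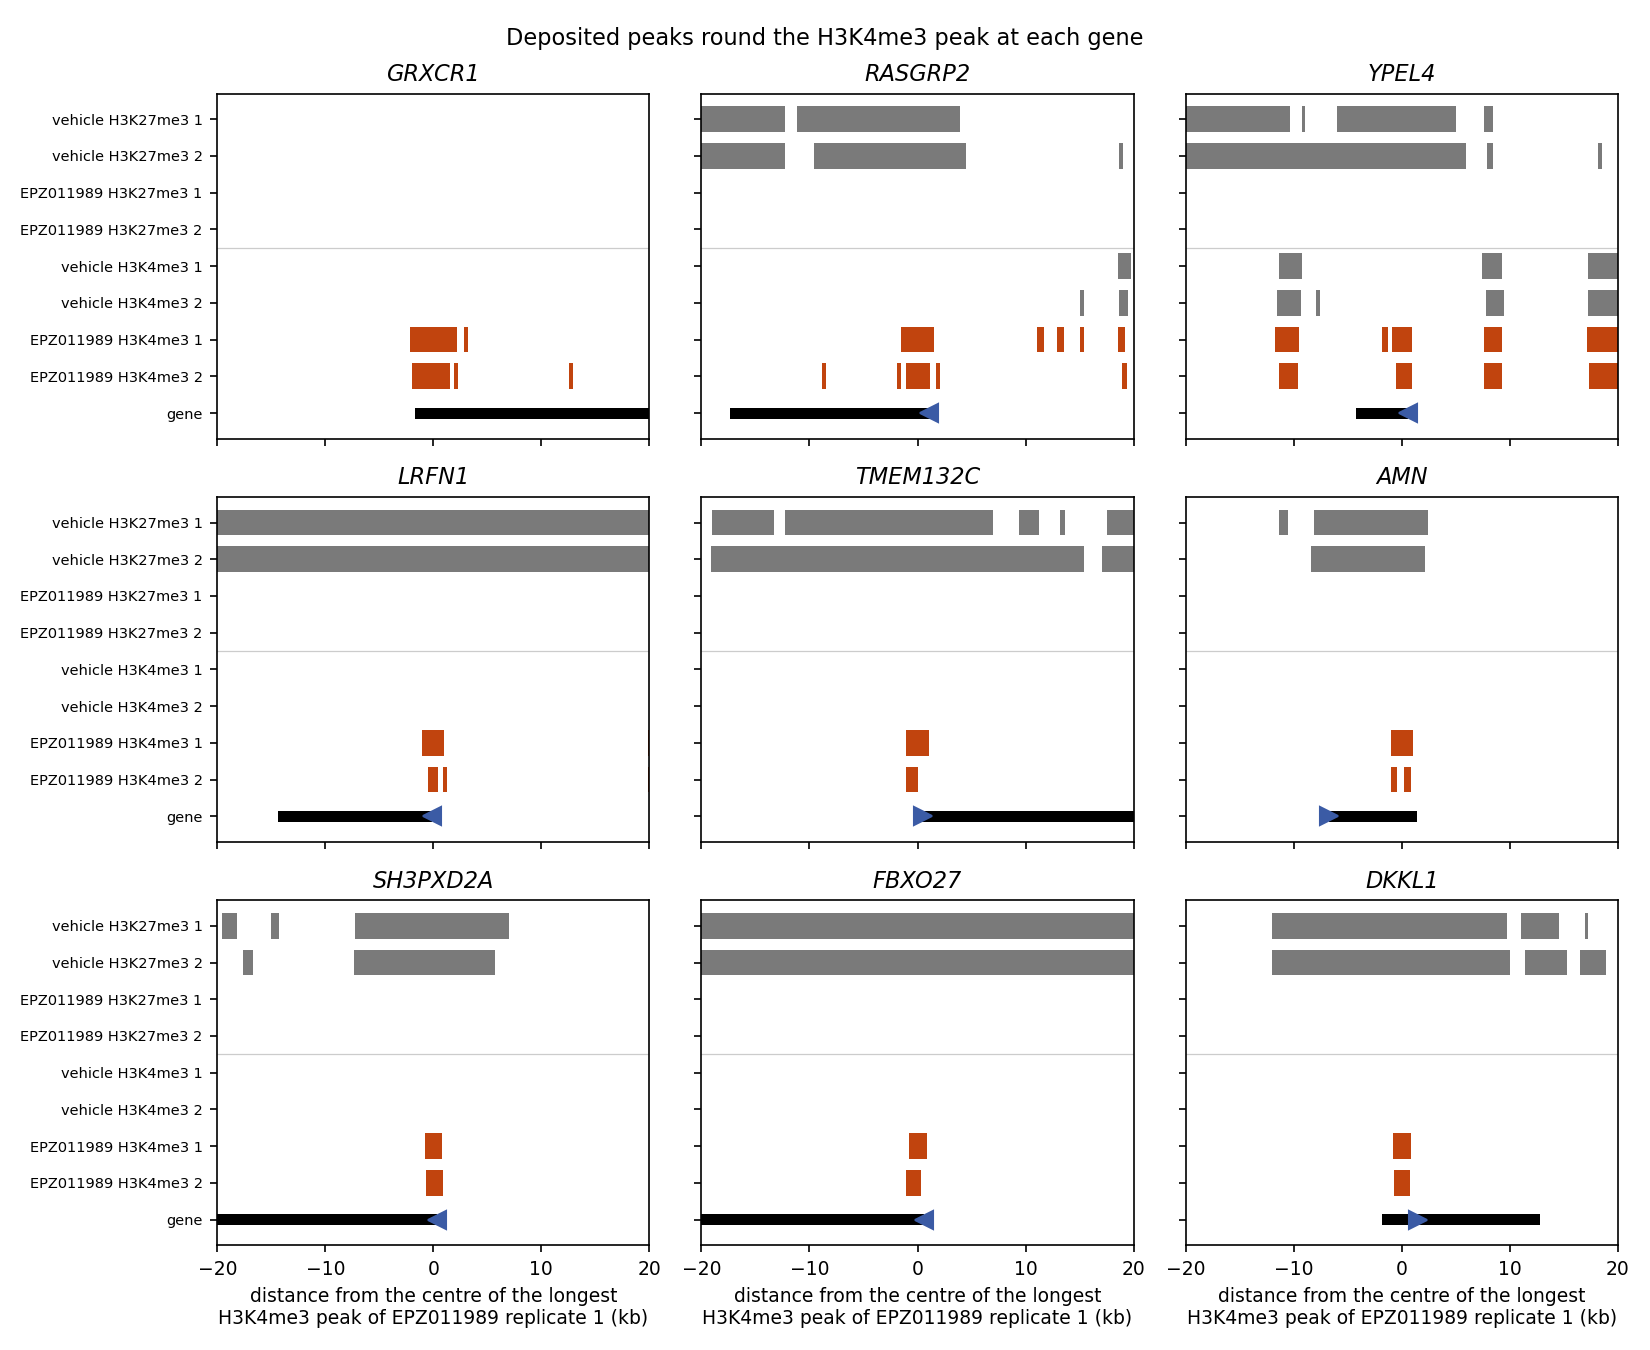
Deposited peaks within 20 kb of the centre of the longest H3K4me3 peak of EPZ011989 replicate 1 at each gene, 1 row per library (grey vehicle, orange EPZ011989, H3K27me3 above the line and H3K4me3 below it), with the gene as a black bar and annotated starts as blue arrowheads pointing along transcription. In 8 panels vehicle H3K27me3 spans the position of the new H3K4me3 peak and the EPZ011989 H3K27me3 rows are empty, while the GRXCR1 panel has no H3K27me3.

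The second comparison asked what H3K27me3 these genes carried before treatment and what was left. All 8 genes other than GRXCR1 had H3K27me3 in each vehicle library and in no EPZ011989 library. Over all genes the share with that pattern was 36.8%, over genes with no vehicle H3K4me3 peak 34.6%, and over the 184 genes gaining H3K4me3 96.2%. The 8 of 9 here were near the share among all genes gaining H3K4me3. GRXCR1 was 1 of 3 genes gaining H3K4me3 with no H3K27me3 peak at their gene ends in any library. The others were GUCA2A, the gut hormone guanylin (420 and 317 bp), and GALNT5, a glycosylation enzyme (378 and 459 bp), both with far shorter peaks than GRXCR1.

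RASGRP2, LRFN1 and FBXO27 had all 10002 bp of their windows inside vehicle H3K27me3 in both replicates, and 0 bp in both EPZ011989 libraries. YPEL4 had 9039 and 9826 bp in vehicle, DKKL1 8521 and 8876 bp, and AMN 7324 and 7425 bp. TMEM132C had 5467 and 5001 bp and SH3PXD2A 5001 bp in both, the value of 1 full end. With EPZ011989 each of these 8 genes stood at 0 bp in both libraries, so the groups did not overlap. GRXCR1 was at 0 bp in all 4 libraries.

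**Figure D4:**
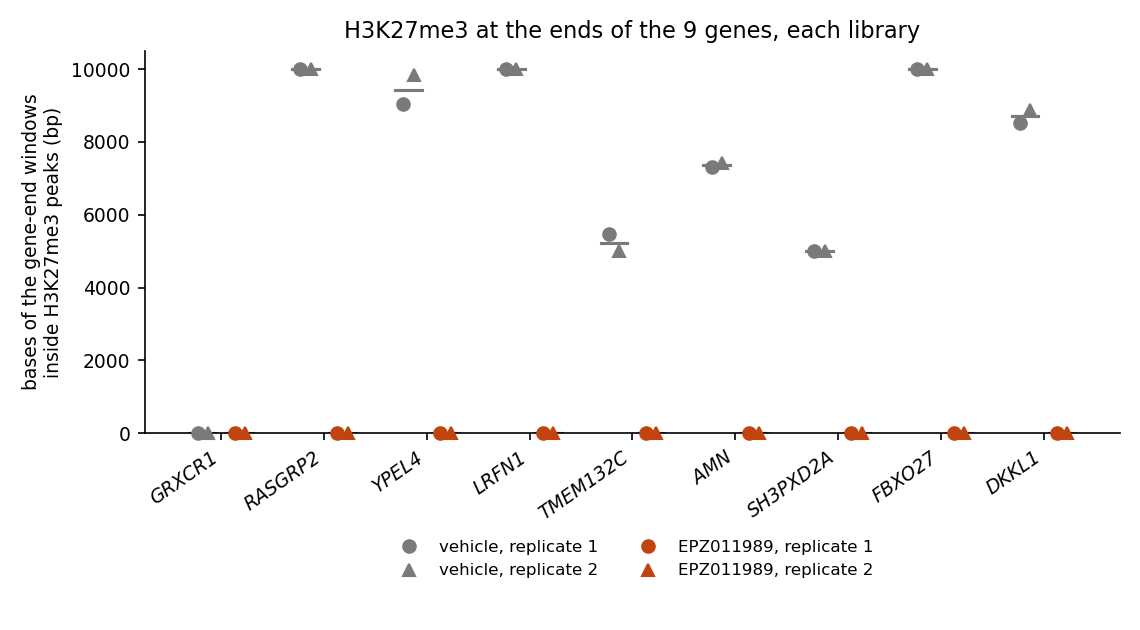
Bases of the gene-end windows inside H3K27me3 peaks (bp) for each of the 9 genes, with circles for replicate 1, triangles for replicate 2 and a line at the mean, in grey for vehicle and orange for EPZ011989. Vehicle points run from 5001 bp to 10002 bp at 8 genes, all EPZ011989 points are at 0, and GRXCR1 is at 0 in every library.

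By limma over the 9601 genes with an H3K27me3 peak in any of the 4 libraries, windows of 60.2% of genes fell (Benjamini-Hochberg adjusted p under 0.05) and 0 rose (0 also at an unadjusted p under 0.05). All 8 of the genes tested were among those that fell, with a median difference of -9066 bp against -2234 bp over all genes tested. Quantile normalization gives all 4 libraries the same distribution, although EPZ011989 peaks summed to 0.217 and 0.0072 Mb against 154 and 175 Mb in vehicle. With it the median over all genes tested moved to 10.5 bp, and 3598 windows fell and 3301 rose. These rises are relative to the shared distribution and do not show a gain of H3K27me3. On that shared scale the 8 genes still fell, with smaller differences. These were -3875 bp at RASGRP2, LRFN1 and FBXO27, -3587 bp at YPEL4, -3230 bp at DKKL1, -2560 bp at AMN, -1553 bp at TMEM132C and -1374 bp at SH3PXD2A. Without that normalization the difference was -7374 ± 46.8 bp (SE) at AMN (limma adjusted p = 5.38e-05), -8698 ± 172 bp at DKKL1 (0.000962), -5234 ± 207 bp at TMEM132C (0.00138) and -9432 ± 382 bp at YPEL4 (0.00338). RASGRP2, LRFN1 and FBXO27 each went from a full window at both ends to an empty one, and SH3PXD2A from a full window at 1 end. These 4 genes had no spread between replicates in either group, so their fitted errors and p-values carry no information and are not given. Without EPZ011989 replicate 1 the adjusted p was 0.053 at DKKL1 and 0.089 at YPEL4, and without EPZ011989 replicate 2 it was 0.0528 and 0.0891. Because nearly every EPZ011989 window was at 0, the spread in this test came almost wholly from the vehicle libraries.

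The vehicle H3K27me3 peaks under the new H3K4me3 were among the strongest and broadest of their lists. In each of the 8 genes, 100% of the H3K4me3 peak lay inside vehicle H3K27me3 in both replicates. These 16 vehicle peaks had folds of 8.37 to 19.9, above 96.3% to 99.9% of the peaks of their list, and were wider than 92.6% to 99.9% of them. Taking the highest fold in each gene's windows, the median over the 8 genes was 11.8 and 12.6 in vehicle replicates 1 and 2. Over the 178 genes gaining H3K4me3 with vehicle H3K27me3 in both libraries it was 9.2 and 9.96, and over all 7372 genes with vehicle H3K27me3 in both it was 4.79 and 5.1.

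The domains, merged from touching peaks of both vehicle libraries, differed in length by more than 10-fold. FBXO27 lay in a domain of 189 kb that was a single peak in each vehicle library (187 and 189 kb), and LRFN1 in one of 158 kb (155 and 158 kb). The FBXO27 domain touched 4 protein-coding genes, among them FBXO17, another gene of the same F-box family, which had 9146 and 9322 bp of vehicle H3K27me3 and 0 bp of H3K4me3 in all 4 libraries. The LRFN1 domain touched 8 protein-coding genes, of which LRFN1 was the only one with the H3K4me3 pattern. TMEM132C lay in 34.5 kb and YPEL4 in 34.1 kb, but both were shorter in vehicle replicate 1, at 19.2 and 11 kb. DKKL1 lay in 22 kb, RASGRP2 in 15.6 kb, SH3PXD2A in 14.3 kb and AMN in 10.8 kb, each of similar length in both vehicle libraries. The new peaks were well inside: between 1386 bp, at AMN, and 134177 bp, at LRFN1, of H3K27me3 lay to either side of them.

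Within 50 kb of the 9 genes few H3K27me3 peaks were listed with EPZ011989. Only 1 peak was listed, in EPZ011989 replicate 1, a 417 bp peak with a fold of 5.31 at chr11:64677060-64677476, 49435 bp below RASGRP2. None was listed in replicate 2, and the 4 IgG libraries listed 0 peaks in these regions. H3K4me3 was already present elsewhere in the regions of several genes. Around YPEL4 each vehicle library listed 4 peaks and each EPZ011989 library 6, and around RASGRP2 the vehicle libraries listed 5 and 7 and the EPZ011989 libraries 14 and 12. AMN, FBXO27 and GRXCR1 had 0 vehicle H3K4me3 peaks in their regions.

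The depth of each library is unknown, since read totals were not analysed here. A stand-in for it, the background in fragments per base solved from each list with a solver checked on narrow lists only, was 0.572 and 0.857 in the vehicle H3K4me3 libraries and 1.48 and 1.24 with EPZ011989. When the fragments at each of the 18 longest peaks were scaled to the vehicle backgrounds, all 18 kept a fold above the lowest fold in either vehicle list (3.18 and 3.23). The smallest margin was at RASGRP2, at 3.56 to 4.6, and the largest at LRFN1 in replicate 1, at 18.4 and 23.1. Among the shorter peaks in the windows, those at YPEL4 in replicate 1 (3.1) and LRFN1 in replicate 2 (2.98) fell below 3.18 at the background of vehicle replicate 1. At that of vehicle replicate 2 they stayed above 3.23, at 3.67 and 3.51. Only folds were scaled, so whether the widths would be kept at vehicle depth was not tested. For H3K27me3 this background ran the other way, with 1.12 and 1.63 in vehicle and 0.373 and 0.148 with EPZ011989. Of the 16 vehicle H3K27me3 peaks at the 8 genes, 15 kept a scaled fold above the lowest fold of EPZ011989 replicate 1 (4.37), TMEM132C in vehicle replicate 2 being the exception at 4.24, but only 2, both at LRFN1, stayed above that of replicate 2 (4.36). At the depth estimated for EPZ011989 replicate 2, the loss of a peak and a fold below the lowest listed one cannot be told apart at the other 7 genes. This scaling takes the background as proportional to depth, and the part of depth in the results was not tested beyond it.

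Of the relatives and partners of the 9 genes, 55 genes in all, 0 met the H3K4me3 rule, against 0.921% of all genes. These genes too were read only within 2500 bp of their ends, so a start elsewhere in a gene was not covered. With a share that low, 0 of 55 cannot be told apart from the share over all genes. Both vehicle libraries had H3K4me3 at 40 of them (72.7%, against 65% of all genes), so most were marked before treatment. H3K27me3 windows fell at 21 of the 31 tested (67.7%, against 60.2% over all genes). These lists, like the 9 genes, were drawn up with earlier results of these data known.

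Among relatives of RASGRP2, the paralogs RASGRP3 and RASGRP4 had no H3K4me3 at their gene ends in any library. RASGRP4 fell in H3K27me3 from 5001 and 6083 bp to 0 in both (limma adjusted p = 0.00702). RASGRP1 had H3K4me3 throughout, with 2375 and 1825 bp in vehicle and 2708 and 2465 bp with EPZ011989. ITGA2B, the platelet integrin chain that Rap1 signalling activates, had 3063 and 2592 bp of vehicle H3K27me3, 0 with EPZ011989, and no H3K4me3 at its gene ends in any library. H3K27me3 windows fell at 5 of the 6 genes tested of the Rap1 list of 11.

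In the TMEM132 family all 4 relatives were marked by H3K4me3 in vehicle, and TMEM132B, TMEM132D and TMEM132E fell in H3K27me3. All 4 yippee-like relatives and all 5 genes of the LRFN1 list were likewise marked in both vehicle libraries. H3K27me3 was called lower by limma at 1 gene of each of these lists, YPEL2 and LRFN3, the latter from only 337 and 420 bp. YPEL5 (321 and 1666 bp in vehicle) and DLG4 (1285 and 2982 bp) also stood at 0 bp in both EPZ011989 libraries. Their vehicle replicates differed more, and they were not called.

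Of the 4 sugar-binding F-box relatives of FBXO27, all fell in H3K27me3, and 3 of the 4 had H3K4me3 in at least 1 vehicle library, FBXO17 being without it. SKP1, CUL1 and RBX1, the core of the ligase, were marked by H3K4me3 in all 4 libraries. Of the cubam genes, CUBN, which pairs with AMN, and CBLIF, the intrinsic factor gene, had neither mark at their gene ends in any library. LRP2 and DAB2 fell in H3K27me3. In the dickkopf family DKK1 and DKK3 fell in H3K27me3, and DKK3 had 319 bp of H3K4me3 in EPZ011989 replicate 1 alone.

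Of 8 invadopodium genes listed with SH3PXD2A, 7 had H3K4me3 in both vehicle libraries, and SH3PXD2B, SRC and ADAM19 were called lower in H3K27me3. ADAM15 went from 578 and 1925 bp of H3K27me3 in vehicle to 0 bp in both EPZ011989 libraries but was not called. MMP14, the membrane metalloprotease of these structures, had neither mark at its gene ends. Of 8 hair bundle genes listed with GRXCR1, 6 were marked by H3K4me3 in vehicle, and the paralog GRXCR2 and PTPRQ had neither mark at their gene ends in any library. No hair bundle gene had H3K27me3 at its gene ends in both vehicle libraries.

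The genes most like each of the 9, by the distance between covered lengths over the 8 libraries of both marks and on another chromosome, were mostly genes that already had some vehicle H3K4me3. RASGRP2 was nearest to NAT16 (2716 and 2506 bp of H3K4me3 with EPZ011989, 0 and 278 bp in vehicle), at a distance of 331 bp. LRFN1 and FBXO27 shared their nearest gene, CHRD, a secreted BMP antagonist, with 1644 and 898 bp of H3K4me3 with EPZ011989 and 0 in vehicle. SH3PXD2A was nearest to DLGAP4 (360 bp), AMN to LBX1 (446 bp), DKKL1 to LOC124908045 (584 bp), TMEM132C to OLFM2 (705 bp) and YPEL4 to KIRREL1 (898 bp). GRXCR1 had no close counterpart: its nearest, LRRC53, was 1360 bp away and had 322 and 917 bp of H3K4me3 in vehicle.

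The cell identity was read from vehicle H3K4me3 at marker genes. All 13 Merkel cell carcinoma markers, among them ATOH1, SOX2, INSM1 and KRT20, were marked in both vehicle libraries, against 65% of all genes. Of the markers of other cells, 3 of 6 fibroblast, 1 of 5 keratinocyte and 3 of 6 lymphoid or myeloid genes were. For the fibroblast and blood lists that is near the share of any gene. Those marked were COL1A1, COL1A2, DCN, KRT10, CD79A, CD14 and SPI1. TP63, KRT5, KRT14, PTPRC and CD3E were among those with 0 bp at the gene ends, and starts elsewhere in these genes were not read. H3K4me3 at a gene end does not show that the gene is transcribed, and RNA was not analysed here.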

How the data were processed

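MKL-1 CUT&RUN peak lists, 1 per library on hg38, were used. The submitters' processing notes name MACS2 2.1.1.20160309, SAMtools 0.1.19, Bowtie2 2.2.9 and FastQC, with no role or order; thresholds and use of the spike-in DNA are not given in the sources used here. The authors deposited for each peak a fold, a ratio of pileup to local background, a −log10 p, a −log10 q, and a score that follows from the −log10 q. H3K27me3 lists are broad peaks, the others narrow. Folds were never compared between lists as they stand.

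From these lists, bases inside peaks within 2500 bp of either end of 19974 protein-coding genes (RefSeq, GRCh38.p14, chromosomes 1 to 22 and X) were counted, without scaling. A peak counted with an overlap of 1 bp or more. H3K27me3 windows were tested with limma 3.58.1 (R 4.3.3, trend and robust, Benjamini-Hochberg adjustment, threshold 0.05). H3K4me3 chose the genes and was not tested. The background was solved from each list's most frequent fold and its median −log10 p under the Poisson model of MACS2; the solver was tested on simulated narrow lists only. Tested on simulated data, limma called 129 of 200 emptied windows and 23 of 9382 others with each window's own vehicle spread, and 95 of 200 and 181 of 9305 with deviations of other windows. The simulation kept all other windows at vehicle level, whereas nearly every EPZ011989 window was at 0 in the data. These rates therefore need not hold for the data. Scripts ran in Python 3.11.15 with scipy 1.17.1, pandas 2.3.3 and numpy 2.4.6.

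The 9 genes, the lists and the tests were chosen with earlier results of these data known. Named genes are the 9, those just outside the set, those sharing a peak, the nearest gene of each on another chromosome, genes gaining H3K4me3 without H3K27me3, and list genes by their marks. Alternatives were other windows, a −log10 q of 5 or more, an overlap of 200 bp, start windows, other merging, quantile normalization, the replicate block and leaving out each library. Library depth is unknown and limits what a missing peak shows.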

Additional observations from a re-analysis of the deposited data

How the results depend on the processing

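The H3K4me3 pattern held at 7 to 9 of the 9 genes under the alternatives run. It was lost at DKKL1 with windows of 1000 bp, at RASGRP2 and YPEL4 with windows of 5000 bp, at AMN with windows at the gene start only (8 genes measured) and at RASGRP2 with a −log10 q of 5 or more. Over all genes the count was 184, from 141 to 208 under those settings, and 258 to 377 leaving out each library in turn, the highest without EPZ011989 replicate 2. H3K27me3 present in each vehicle library and absent with EPZ011989 held at 8 genes throughout.

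Genes with a lower H3K27me3 window numbered 5784 of 9601, 3301 of 4470 with a −log10 q of 5 or more, and 3210 to 8885 leaving out each library in turn. Without a vehicle library the spread rested on lists almost at 0, so the higher counts carry no weight. Quantile normalization gave 3598 lower and 3301 higher windows and moved the median difference over all genes from -2234 to 10.5 bp. The 8 genes stayed lower, with differences of -3875 to -1374 bp. It sets all libraries to the same distribution, so these values are relative to that distribution. With no filter the model could not be fitted. Deviations of same-numbered vehicle and EPZ011989 libraries correlated at 0.0162 over 9601 windows. Nearly every EPZ011989 window was at 0 in both libraries, so this correlation could not show whether replicate numbers were paired. With the replicate block 4555 windows were lower, the 8 genes among them. Merging peaks across gaps of up to 5000 bp lengthened the domains of RASGRP2 to 119 kb, YPEL4 to 93.8 kb, TMEM132C to 85.5 kb and DKKL1 to 47.2 kb.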
